A study of Homo sapiens with 10 samples.

Results

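Untreated HuH-7 cells, an established human hepatocellular carcinoma line, are described here through the 5 arrays labelled as kept for 96 h without lenvatinib, out of 10 arrays in the series. The other 5 arrays, from cells given 1 µM lenvatinib, an oral inhibitor of VEGF and FGF receptor kinases, were not used, and no treated cells enter any value. All cells grew in low-glucose DMEM with 10% fetal bovine serum, penicillin and streptomycin. Total RNA was labelled with Cy5 and hybridised to a 1-colour microRNA (miRNA) array, and every miRNA probe marked OK by the scanner was read. Per array that was 2565 probes, except that 2 spots were marked NG on array 5, which left 2563 probes read on all 5 arrays. The design text of the series states 2555 probes. No label says whether the 5 arrays came from separate cultures, so the spread between them may be technical, and their number limits the precision of every value. By its extraction label the RNA came from serum, whereas the sample labels give the cell line as the source.

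miRNAs are short RNAs cut from hairpin precursors, and each hairpin can yield a product from its 5′ arm (5p) and from its 3′ arm (3p). Usually 1 of them, the guide, is loaded into an Argonaute protein while the other is degraded. Pairing of the bases that follow the first one, the seed, with sites in messenger RNAs lowers their translation and stability, so that miRNAs with the same seed share many targets. In the liver miR-122 is the miRNA best known for its abundance, and it is often lost in hepatocellular carcinoma.

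The sequences below carry the results that follow. They are RefSeq mature miRNAs of GRCh38.p14, written 5′ to 3′ with the seed (bases 2 to 8) in capitals. RefSeq entries were matched for 2264 of the 2565 probes and 301 had none. First stand the 5 miRNAs with the brightest probes, all different in seed:
miR-4454: gGAUCCGAgucacggcacca
miR-7975: aUCCUAGUcacggcacca
miR-7977: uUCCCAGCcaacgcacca
miR-4284: gGGCUCACaucaccccau
miR-1260b: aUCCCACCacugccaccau
They are followed by the brightest probes among miRNAs long known from this tissue, the hepatocyte miRNAs miR-122, miR-192 and miR-194 and the tumour-associated miR-21:
miR-21-5p: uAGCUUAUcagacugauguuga
miR-122-5p: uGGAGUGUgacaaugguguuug
miR-194-5p: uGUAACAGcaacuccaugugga
miR-192-5p: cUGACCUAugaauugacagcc
The 6 members of the miR-17 seed family among the 100 brightest probes differ from each other at few positions outside the seed:
miR-17-5p: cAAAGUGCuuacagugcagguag
miR-106a-5p: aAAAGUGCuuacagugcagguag
miR-20a-5p: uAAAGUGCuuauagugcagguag
miR-20b-5p: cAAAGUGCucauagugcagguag
miR-93-5p: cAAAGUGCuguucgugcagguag
miR-106b-5p: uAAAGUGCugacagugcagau

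A probe counted as detected where its raw brightness exceeded the mean of the array's blank spots by 2 SD, the limit behind the filled and empty cells of the files. By this call 1037 of 2565 probes (40.4%) were detected on all 5 arrays, 723 (28.2%) on 1 to 4 arrays and 805 (31.4%) on none. The arrays detected 1351, 1404, 1265, 1546 and 1230 probes (mean 1359.2 ± 125, SD, n = 5). Array 4, which had the dimmest blanks, detected the most, and 138 of its probes were detected on no other array, against 16 to 59 on the other four. Levels below are globally normalized intensities, in arbitrary units, which the authors scaled per array. Among the 1037 probes the mean level ranged from 9.10 to 169829, that is over 14.19 log2 units, with a median of 33.0. Of these probes 63 lay at or above 1000, 263 at or above 100 and 774 below 100. On this scale most detected probes were dim. The scaling largely fixes this, since it sets the median of detected probes on each array to 25. Probes detected on 1 to 4 arrays had a median value of 11.5, and 3 of them reached 50 anywhere. These were miR-6084, with 199.6 on array 4 and 8.88 on array 3, miR-548ax, with 91.7 on array 2 alone, and miR-3690, with 9.05 on array 2 and 55.7 on array 5.

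Signal was concentrated in few probes. The 10 brightest took 58.2% ± 0.618 of the summed signal of detected probes (SD, n = 5), the 100 brightest took 89.6% ± 0.539, and miR-4454 alone took 26.1% ± 0.927. This order is one of probe signal and not of molecules, since probes differ in how brightly they bind. miR-4454 read 176442, 164363, 168689, 187272 and 154203 on arrays 1 to 5. Its lowest value was above every value of the next probe, miR-7975, at 47545, 36677, 43582, 48961 and 46948. Behind them came miR-7977 at 35395 ± 1953 (mean ± SD, n = 5), miR-4284 at 35381 ± 3563 and miR-1260b at 30272 ± 2525. The means of miR-7977 and miR-4284 differed by less than the spread between arrays. All 5 carry catalogue numbers above 1000, and less is known of their function than of the miRNAs that follow.

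miR-21-5p, which represses the tumour suppressor PDCD4, came next with 18035, 14144, 17727, 15220 and 16313. After it stood miR-122-5p at 13767, 12744, 12102, 11909 and 12579, miR-4286 at 12620 ± 828, and miR-130a-3p at 11409 ± 443. miR-122-5p and miR-4286 had overlapping values and their order was not fixed, whereas the lowest miR-21-5p value lay above the highest miR-122-5p value. The miR-17 family members miR-17-5p (10698 ± 593), miR-106a-5p (10026 ± 851), miR-20a-5p (8825 ± 475) and miR-20b-5p (8038 ± 944) and their cluster partner miR-19b-3p (7304 ± 742) all stood among the 20 brightest. miR-16-5p, which restrains cyclins and BCL2, read 7467 ± 494, and miR-103a-3p, which lies in pantothenate kinase genes, read 6418 ± 612. The rest of the 20 were miR-7641 (9306 ± 1544), miR-1273g-3p (8325 ± 769), miR-5100 (7682 ± 645) and miR-6089. Of all 20, miR-6089 had the largest SD on the log2 scale, with 8447, 5849, 7824, 10518 and 8238. The same 20 probes were the 20 brightest on each of the 5 arrays, 9 probes were in the top 10 of each, and 92 in the top 100 of each.

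**Figure D1:**
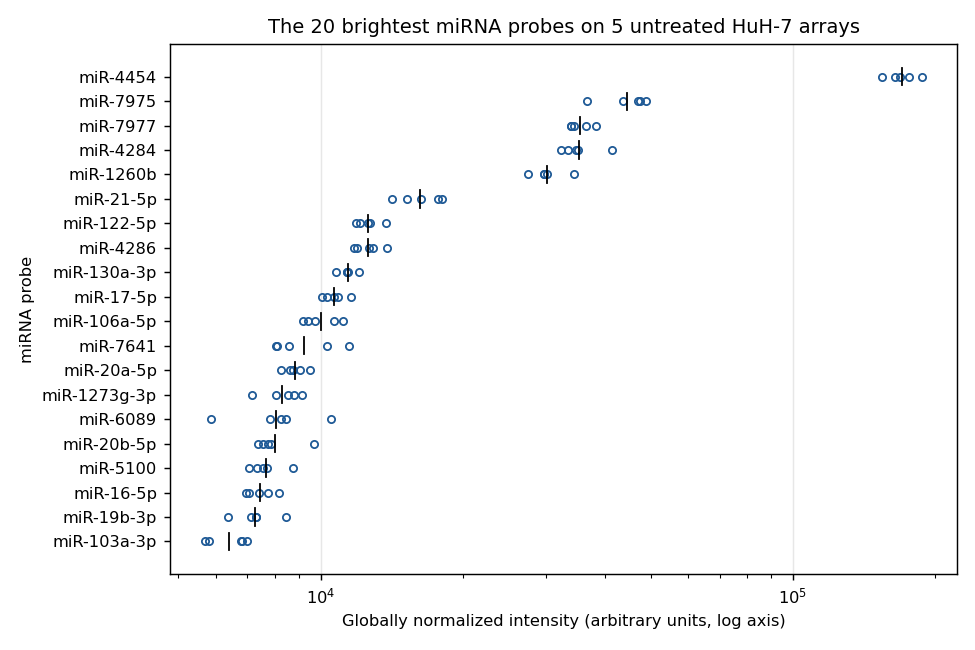
The 20 probes with the highest mean level, from top to bottom, with the globally normalized intensity of each of the 5 untreated arrays as circles on a log axis and the geometric mean as a black bar. miR-4454 stands apart from all others, at 154203 to 187272, and miR-6089 has the widest spread, from 5849 to 10518.

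The brightest probes also shared letters. The run CACCA, searched on the miRNA strand as a motif of 5 bases, was present in 4 of the 5 brightest, in 22 of 900 miRNAs with a sequence that were detected on all arrays (2.44%) and in 41 of all 2264 (1.81%). It closed the 3′ end in 3 of the 5, against 6 of 2264 (0.265%). The motif was fixed with earlier results of these data known, so this contrast only describes the 5 probes. Nor are its hits independent, given the shared run named next. miR-4454 and miR-7975 shared an unbroken run of 13 bases, and the miRNAs with CACCA among the 30 brightest are these, with the motif in capitals:
miR-4454: ggauccgagucacggCACCA
miR-7975: auccuagucacggCACCA
miR-7977: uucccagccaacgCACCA
miR-1260b: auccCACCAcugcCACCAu
miR-1260a: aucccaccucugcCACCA
Mature transfer RNAs carry CCA at their 3′ end, added after transcription. Whether transfer RNA pieces contributed to these signals was not tested, and a match of letters is a description. In the annotation the mature miR-4454 lies at chr4:163093607-163093626 (minus strand), miR-7975 at chr19:55123225-55123242 (minus strand) and miR-7977 at chr3:176515103-176515120 (plus strand), none of them inside the span of another gene in the RefSeq gene table. miR-1260b at chr11:96341447-96341465 (plus strand) lies within the span of MAML2, a Notch coactivator gene, and miR-4284 at chr7:73711327-73711344 (plus strand) within that of STX1A, which encodes a syntaxin.

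Hepatocyte-enriched miRNAs were read through a list of 14 probes. The list was chosen with earlier results of these data known, so it is no independent check of cell identity. All 14 were detected on all 5 arrays, where 40.4% of all probes were, and together they held 3.84% ± 0.216 of the signal (SD, n = 5). Ranked by raw brightness among all 2565 probes, the median member stood at the 96.1 percentile, against 48 for all probes. The list was led by miR-122-5p, whose 12620 ± 726 came from chr18:58451088-58451109 (plus strand) in the host transcript MIR122HG. miR-122-3p, from the other arm, read 1055, 1070, 1076, 1047 and 905, lowest on array 5. miR-194-5p read 4432, 3901, 4328, 3948 and 3845, and miR-192-5p read 3691, 3139, 3575, 3117 and 3354, arrays 1 and 3 being the highest for both. These epithelial miRNAs are made together from chr11:64891203-64891425 in MIR194-2HG, and miR-194-5p has another copy on chromosome 1. Their relative miR-215-5p read 638 ± 46.4, with all arrays but the fifth between 649 and 666.

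Further down the hepatocyte list stood miR-148a-3p (1224 ± 109), which represses DNMT1, miR-455-3p (826 ± 66.7), miR-885-5p (533 ± 33.4) from within the ATP2B2 span, and miR-378a-3p (346 ± 28.0), which is encoded in PPARGC1B, a coactivator gene of energy metabolism. miR-483-3p, from an intron of IGF2, read 168 ± 10.5 and miR-455-5p read 115 ± 13.0. The dimmest members were miR-483-5p at 24.7, 30.2, 22.3, 48.7 and 20.6, miR-885-3p at 23.6, 18.0, 12.6, 26.4 and 12.7, and miR-101-3p at 8.19, 22.3, 10.7, 14.5 and 20.1. miR-101-3p, a repressor of EZH2 that is abundant in normal liver, thus sat close to the detection limit on array 1.

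Of 20 probes for miRNAs known as raised in hepatocellular carcinoma, 19 were detected on all arrays, where 40.4% of all probes were, and 1 on some, and they held 5.47% ± 0.303 of the signal. Besides miR-21-5p the brightest were miR-93-5p (4898 ± 270), miR-106b-5p (4284 ± 220) and miR-25-3p (2842 ± 200), which share an intron of MCM7, a replication helicase gene. miR-130b-3p read 1735 ± 97.8, miR-221-3p, a repressor of the cell cycle inhibitor p27, read 1003 ± 69.1, and its cluster partner miR-222-3p read 521 ± 52.7. miR-224-5p, often raised in this tumour, was dim at 50.2 ± 3.99. miR-517a-3p, which shares its probe with miR-517b-3p, read 23.1 ± 2.60. The member detected on some arrays was miR-520g-3p, at 11.8 on array 2 and 7.44 on array 4.

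Of the 17 probes for miRNAs known as lowered in this tumour, 12 were detected on all arrays, 3 on some and 2 on none. Over all probes these shares were 40.4% on all arrays and 31.4% on none. They held 2.86% ± 0.195 of the signal, most of it from miR-122-5p. miR-26a-5p (3126 ± 268) and the collagen repressor miR-29b-3p (1289 ± 108) were bright, followed by miR-125b-5p (845 ± 89.8) and miR-34a-5p (247 ± 18.6), a target of p53. The shared probe of miR-199a-3p and miR-199b-3p, a pair abundant in normal liver, was detected on no array, and miR-199a-5p read 19.2 ± 3.81. miR-139-5p was detected on no array, while miR-139-3p gave 7.01, 13.4, 12.1 and 10.6 on arrays 1 to 4 and nothing on array 5. miR-223-3p, a myeloid miRNA, was seen on array 2 (9.22) and array 5 (7.35).

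The families differed in signal. Their counts stand against 40.4% of all probes detected on all arrays. The 26 probes of the clusters miR-17-92a, miR-106a-363 and miR-106b-25, whose products promote proliferation, held 9.61% ± 0.467 of the signal, with 20 detected on all arrays, 3 on some and 3 on none. Their 14 members at or above 100 included miR-18a-5p (1262 ± 88.6), miR-92a-3p (953 ± 93.6) and miR-18b-5p (895 ± 77.4). miR-363-3p, from the same transcript as miR-106a-5p, gave 7.95, 21.4, 7.82 and 20.2 on arrays 1 to 4 and was not detected on array 5. The 7 miR-15/16 probes were all detected on all arrays, from miR-16-5p down to miR-497-5p at 37.2 ± 6.43. miR-15b-5p, made with miR-16-5p from within SMC4, read 1617, 1515, 1089, 1659 and 1450, with array 3 the lowest.

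The let-7 family, which restrains growth and the fetal regulators LIN28 and HMGA2, was much dimmer than the miR-17 clusters. Its 9 probes held 0.135% ± 0.00934 of the signal, with 7 detected on all arrays and 2 on some. let-7f-5p read 250, 219, 270, 214 and 268, and let-7a-5p read 259, 221, 148, 190 and 182. Their ranges overlapped, and within let-7a-5p array 3 was the lowest. let-7d-5p read 118, 145, 124, 132 and 120. The others were lower, with let-7c-5p at 115 ± 10.0, let-7e-5p at 108 ± 10.1 and let-7b-5p at 54.1 ± 8.07. let-7i-5p was near the limit at 16.5 ± 5.27, and let-7g-5p was missing on array 3 and read 8.74 to 17.7 on the others. miR-98-5p was seen on array 4 (12.4) and array 5 (14.2).

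Other guide arms common to many tissues were present throughout. Each of the 5 probes of the miR-30 family, which represses epithelial-mesenchymal regulators, was detected on all arrays, from miR-30b-5p at 1355 ± 113 to miR-30a-5p at 520 ± 54.8. The 3 miR-29 probes read 2000 ± 168 for miR-29a-3p, 1289 ± 108 for miR-29b-3p and 263 ± 38.5 for miR-29c-3p. Within the miR-23/27/24 clusters 7 of 11 probes were detected on all arrays and 4 on some, and the guides miR-23b-3p (4652 ± 526), miR-23a-3p (4386 ± 461) and miR-24-3p (1764 ± 271) were the brightest. All 5 probes of the miR-99/100 and miR-125 group were detected on all arrays. There miR-99a-5p was uneven, at 1235, 1113, 749, 869 and 720, with arrays 1 and 2 above the rest, while miR-100-5p, a near copy, stayed between 884 and 1003. The 5 miR-320 probes read from 473 ± 35.9 for miR-320e to 919 ± 98.6 for miR-320a, a miRNA whose hairpin bypasses Drosha. The 4 miR-181 probes ran from 244 ± 33.0 for miR-181a-5p down to 26.7 ± 7.08 for miR-181c-5p. Of the 11 probes of p53-responsive miRNAs 7 were detected on all arrays, led by miR-107 (5261 ± 405), miR-194-5p and miR-192-5p. In the miR-34b and miR-34c pair, of which each has 2 probes, miR-34b-5p was the one detected on all arrays, at 27.2 ± 4.23.

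Part of the signal lay in seeds shared by several probes. The largest share of any seed, 26.1%, was that of miR-4454 alone, the only matched probe with its seed. Of the 100 brightest probes 86 had a sequence, with 64 different seeds, and 37 of the 86 shared theirs with another. The seed AAAGUGC, in the 6 miR-17 family members printed above, held 7.18% ± 0.336 of the signal over its probes on the array (SD, n = 5). UCCCACC, in miR-1260b and miR-1260a, held 5.21% ± 0.328, AGCAGCA, in miR-16-5p, miR-15b-5p, miR-15a-5p and miR-424-5p, held 1.78% ± 0.0866, and GUGCAAA, in miR-19b-3p and miR-19a-3p, held 1.41% ± 0.0899. GCAGCAU, in miR-103a-3p and miR-107, held 1.79% ± 0.161, and UCACAUU, in miR-23b-3p and miR-23a-3p, held 1.42% ± 0.0929. AAAGCUG, in miR-320b, miR-320c and miR-320d, held 0.420% ± 0.0125 over its 4 probes on the array. All these shares count every matched probe with the seed, also those not named. miR-320a had no matched sequence and was not counted.

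Such relatives can bind each other's probes, so the signal of each is uncertain as a measure of that miRNA alone. Among the 100 brightest, 21 pairs differed at no more than 3 positions, and 15 of them lay within 2-fold of each other, with a median absolute log2 difference of 0.42. Over all 3655 pairs of those probes the median was 1.26. miR-17-5p and miR-106a-5p, which differ at 1 position, stood 0.096 ± 0.065 log2 units apart (SD, n = 5), and miR-320c and miR-320d 0.022 ± 0.032. Some near copies were far apart in signal. miR-1260b exceeded miR-1260a by 3.04 ± 0.08 log2 units with 1 differing position, miR-192-5p exceeded miR-215-5p by 2.40 ± 0.16 with 2, and miR-19b-3p exceeded miR-19a-3p by 1.93 ± 0.08 with 1.

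There were 37 groups of at least 3 hairpins spaced by at most 10 kb. Of these 12 had an arm of every hairpin detected on all arrays, 16 of some hairpins and 9 of none. For scale, of 810 hairpins with a probe for each arm, 208 had both arms detected on all arrays. Another 104 and 54 had the 5p arm alone on all arrays, with the 3p arm on some or none. For the 3p arm alone these counts were 103 and 41. The MIR17 to MIR92A1 cluster at chr13:91350605-91351391, inside MIR17HG, had all of its 6 hairpins detected and held 4.82% ± 0.195 of the signal (SD, n = 5). Its X-linked paralogue from MIR363 to MIR106A, at chrX:134169378-134170278, had 5 of 6 and held 4.18% ± 0.295, and the MIR25 to MIR106B cluster at chr7:100093560-100094074, inside MCM7, had 3 of 3 and held 1.87% ± 0.0947. miR-19b-3p and miR-92a-3p are encoded in both of the first clusters and were counted in each, so these shares overlap. The signal shares of different hairpins of 1 cluster were unequal. Within the chromosome 13 cluster, for example, miR-17-5p read 10698 ± 593 and miR-92a-3p 953 ± 93.6, though both come from the same transcript.

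In large clusters that are active in placenta or embryo, the share of probes detected on all arrays was below the 40.4% of all probes for the lists given here. None of the 16 probes of the pluripotency clusters miR-302/miR-367 and miR-371 to miR-373 was detected on all arrays, 11 were on some and 5 on none, and their summed signal was 48.2 to 58.0 per array. miR-371a-5p was the most often seen, at 18.3, 15.1, 22.7 and 7.70 on arrays 2 to 5. Of the 47 probes in the primate placental cluster C19MC (chr19:53666679-53762430, 46 hairpins), 8 were detected on all arrays, 20 on some and 19 on none. The brightest there were miR-517a-3p, given above, miR-520d-3p at 18.6, 30.6, 18.2, 19.6 and 17.9 and miR-518b at 18.2 ± 4.21, all below the median of detected probes. The summed signal of C19MC was 173 to 290 units per array. From the transposon-derived miR-548 family 61 of 73 probes were detected on no array and 2 on all.

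The imprinted 14q32 cluster between DLK1 and DIO3 (chr14:100814491-101066801, 53 hairpins) was uneven. Of its 92 probes 26 were detected on all arrays, 33 on some and 33 on none, and its signal share was 0.492% ± 0.0139. Most of that came from miR-494-3p, at chr14:101029681-101029702 (plus strand), which read 2583, 2024, 2328, 2111 and 2046, highest on array 1. The next probes were miR-2392 at 158, 133, 174, 273 and 193, miR-370-3p at 61.6 ± 5.49 and miR-487a-5p at 49.2 ± 6.75. The stretch from MIR379 to MIR656, which holds miR-494, had 19 of 42 hairpins with an arm detected on all arrays. Over the 810 hairpins with a probe for each arm the share was higher. There 208 had both arms, and 104, 54, 103 and 41 had 1 arm, detected on all arrays. Among the miRNAs of the imprinted IGF2 and H19 genes, miR-675-5p, cut from the H19 RNA, read 43.0 ± 8.27, and miR-675-3p was seen on arrays 2, 3 and 4 at 22.4, 14.9 and 28.9.

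Markers of other cell types were counted against the 40.4% of all probes detected on all arrays and their median brightness percentile of 48. The shares and median percentiles were 60% and 63.8 for erythroid, 42.9% and 44.8 for leukocyte and platelet, 42.9% and 42.0 for muscle, 28.6% and 50.2 for neural and 72.7% and 77.3 for endothelial and stromal probes. By these counts the leukocyte and muscle lists lay near a typical probe, and the endothelial and stromal list lay furthest above it. The erythroid share rests on 3 of 5 probes, too few to set it apart from all probes. Most detected members of the erythroid, leukocyte and muscle lists were dim. The source labels name a cell line, so these lists are read as probe signals and not as amounts of other cell types. In the erythroid list, miR-451a read 20.4, 31.8, 17.7, 26.4 and 20.3, miR-486-5p read 22.0 ± 5.02 and miR-486-3p 16.8 ± 4.09. Both arms of miR-144, made from the same cluster as miR-451a, were detected on no array. Summed erythroid signal was 48.9 to 75.1 per array with 3 of 5 probes detected on all arrays. Of 7 leukocyte and platelet probes 3 were detected on all arrays and 4 on some, with sums of 279 to 344. Nearly all of that was miR-146a-5p, an NF-kappaB target also made by epithelial cells, at 310, 270, 266, 266 and 230. miR-150-5p (15.3 ± 3.03), miR-142-3p (14.7 ± 2.83) and the partly detected miR-142-5p, miR-223-3p, miR-223-5p and miR-155-5p were all near the limit. Their part in the profile was not tested, and serum in the medium cannot be told apart from the cells by these values.

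The 11 endothelial and stromal probes summed to 911 to 1143 per array, with 8 detected on all arrays, 1 on some and 2 on none. The share on all arrays was 72.7%, against 40.4% of all probes. The brightest were miR-218-5p (353 ± 35.5), miR-126-3p (202 ± 15.2), the endothelial miRNA encoded in EGFL7, miR-143-3p (163 ± 25.2) and miR-145-5p (153 ± 23.3). miR-145-3p and the shared miR-199a-3p and miR-199b-3p probe were at no detectable level. Muscle probes summed to 39.9 to 77.6, with 3 of 7 detected on all arrays, near the 40.4% of all probes. These were miR-206 at 16.8, 28.4, 13.7, 14.3 and 15.1, miR-133b at 10.7 to 21.8 and miR-133a-3p at 10.2 ± 2.13. miR-1-3p was seen on arrays 2 and 5. Neural probes summed to 559 to 703, nearly all from miR-128-3p (513 ± 45.3), which many tissues make, and miR-138-5p (62.5 ± 6.60). The neuron-defining miR-124-3p was missing on array 2 and read 28.6, 14.4, 23.5 and 20.1 on the others, and miR-9-5p was seen on 3 arrays.

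The epithelial miR-200 family, which represses ZEB1 and ZEB2, was mostly dim among detected probes. Of its 5 probes 4 were detected on all arrays (80%, against 40.4% of all probes). The median brightness percentile of the 5 was 68.8, against 48 for all probes. The 4 had a median level of 20.7, against 33.0 for all probes detected on all arrays, with miR-200b-3p above the latter. miR-200b-3p read 80.3, 76.4, 84.0, 82.3 and 73.5. miR-200a-3p (21.6 ± 3.48), miR-200c-3p (20.9 ± 7.07) and miR-429 (14.2 ± 3.25) were lower, and miR-141-3p was detected on no array. Of the 5 probes none reached 100.

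**Figure D2:**
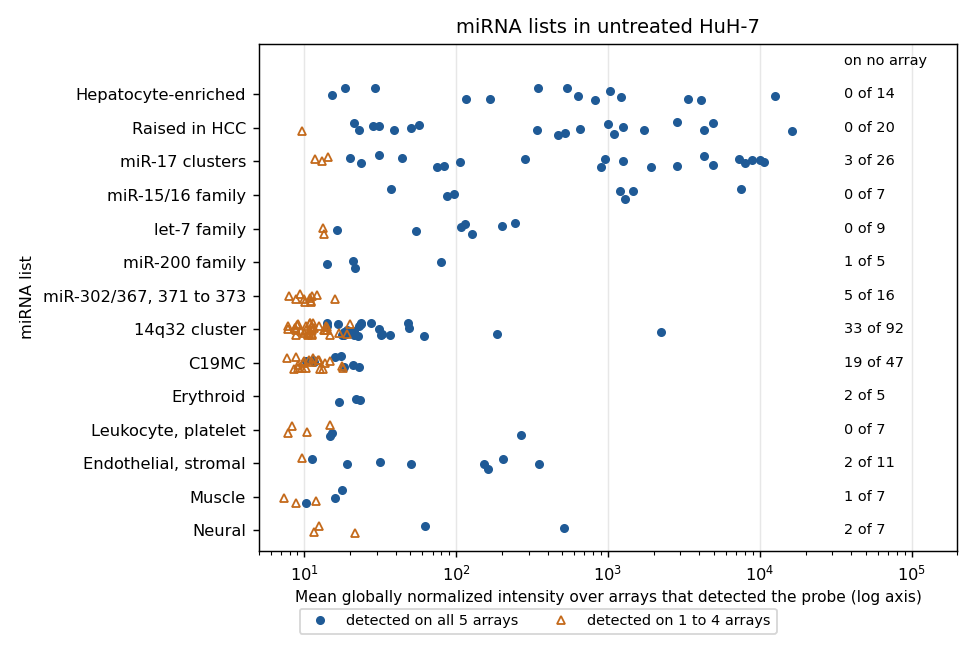
Each point is the mean globally normalized intensity of 1 probe of a list, over the untreated arrays that detected it, on a log axis, filled where all 5 arrays detected it and open where 1 to 4 did, with the number of probes detected on no array at the right. HCC stands for hepatocellular carcinoma. Hepatocyte-enriched probes reach 12620, while no probe of the miR-302/miR-367 and miR-371 to miR-373 lists was detected on all arrays.

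Detection differed by the catalogue number and base composition of the miRNAs, and not in step with the number. Of probes numbered 1 to 200, the earliest miRNAs, 58.1% were detected on all arrays, and they supplied 28.8% ± 1.49 of the signal and 50 of the 100 brightest probes. The largest share of signal, 38.3% ± 1.01, lay in numbers 4001 to 6000, most of it in miR-4454, which alone held 26.1%. Of the probes with these numbers 31.0% were detected on all arrays. Numbers 501 to 1000 had 24.6% detected on all arrays and 1.06% ± 0.0870 of the signal. Numbers 6001 and over had 59.5% detected, with a median level among them of 29.6, against 152 for numbers 1 to 200. Of the 320 detected probes above 6000, 240 came from miR-6726 to miR-6895, a series that holds many mirtrons, which are short introns cut by the spliceosome in place of Drosha. Of the 339 probes in that series 79 were detected on some arrays and 20 on none, and the series held 2.41% ± 0.186 of the signal, and 24 reached 100. miR-6822-5p at 1769 ± 287 and miR-6765-3p at 1024 ± 82.7 led them.

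GC-rich miRNAs were detected more often than GC-poor ones. Of miRNAs with under 30% GC, 1.43% were detected on all arrays, against 27.3% of those with 40 to 50% and 69.6% of those with 80% or more. Across the 2264 probes with a sequence, GC percent and the percentile of raw brightness had a Spearman correlation of 0.474, as a description over probes that share arrays and are not independent. It was 0.202 over the 467 probes numbered up to 500 and 0.597 over the 1797 numbered above 500. miR-6089, printed in RefSeq as gGAGGCCGggguggggcggggcgg, had the highest GC content of the 16 among the 20 brightest with a sequence. The deviation of array 4 from the mean of the 5 arrays had a Spearman correlation of 0.245 with GC percent over 900 probes, against -0.078 to -0.042 for the other arrays.

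**Figure D3:**
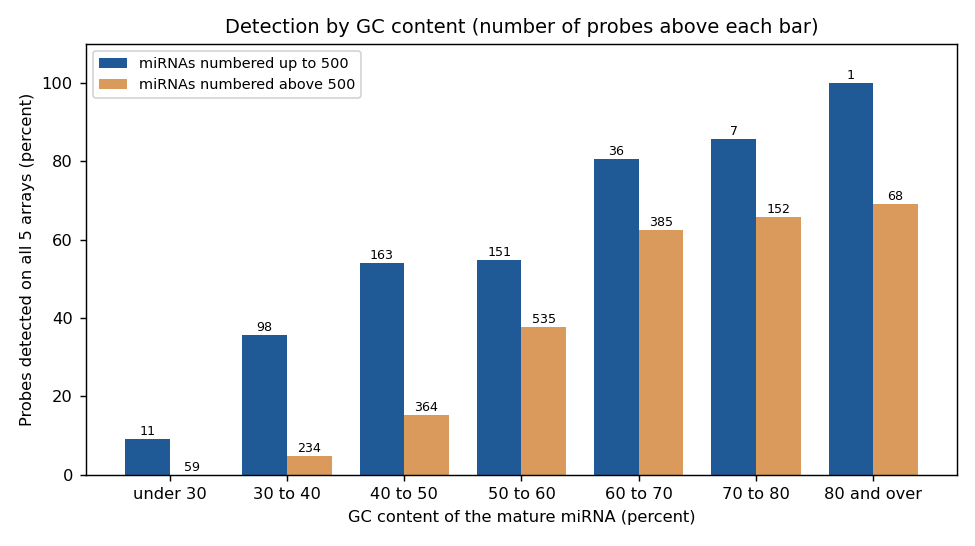
Bars give the percent of probes detected on all 5 untreated arrays by GC content of the mature miRNA, for miRNAs numbered up to 500 and above 500, with the number of probes above each bar. Detection is lowest under 30% GC, where 0 of 59 miRNAs numbered above 500 were detected on all arrays, and the bar for 80% and over rests on 1 probe up to 500.

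Arm ratios were taken for the 810 hairpins with a probe for each arm, as the log2 of the 5p over the 3p signal on each array. They compare probe signals, which also differ by how each probe binds. Both arms were detected on all arrays for 208 hairpins, the 5p arm on all and the 3p arm on none for 54, the reverse for 41, and neither arm on any array for 119. Of the 208 the 5p arm was brighter on average in 128 (61.5%). The brighter arm was the same on all 5 arrays for 167 hairpins, 109 of them 5p and 58 of them 3p. In the 41 others it differed between arrays, and their mean ratio was at most 1.38 log2 units. The median absolute ratio was 1.38, with a median SD of 0.34 over the 5 arrays, 132 hairpins differed at least 2-fold and 38 at least 10-fold.

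Among the 208 hairpins with both arms detected on all arrays, miR-21 had the ratio furthest toward 5p. Hairpins with an undetected arm are outside this order and are given below. The log2 ratios of miR-21 were 9.26, 8.98, 9.55, 9.25 and 9.55 on arrays 1 to 5, a mean of 9.32 ± 0.24 (SD, n = 5), with miR-21-3p at 25.6 ± 3.18. With raw brightness in place of background-subtracted values it was 6.70, and the 12 ratios named here all shrank in this way. It was followed by miR-191 (7.18 ± 0.59), miR-192 (6.86 ± 0.24), miR-93 (6.81 ± 0.26), miR-20a (6.37 ± 0.07) and miR-106b (5.70 ± 0.09). For miR-20a, whose ratio had the smallest SD of these 6, the arms read 8825 ± 475 and 106 ± 4.44. For miR-191, whose ratio had the largest, miR-191-3p read 7.70, 12.1, 11.1, 19.6 and 15.2. It was near the limit of detection on array 1 and dim on the others, so the size of this ratio and its place in the order are uncertain.

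Toward the 3p arm, miR-1273g had a ratio of -9.38 ± 0.63 log2 units, from miR-1273g-3p at 8325 ± 769 and miR-1273g-5p at 10.1, 25.7, 7.54, 14.4 and 10.5. Its 5p arm thus lay near the limit of detection on arrays 1, 3 and 5, so the size of this ratio is uncertain. Other hairpins of this kind were miR-494 (-6.72 ± 0.38), miR-25 (-6.52 ± 0.30), miR-221 (-6.25 ± 0.35), miR-130b (-5.57 ± 0.28) and miR-148a (-5.21 ± 0.18). The 5p arm of miR-221 was also dim, from 9.39 on array 4 to 18.4 on array 3, so the size of its ratio is uncertain too. In the MCM7 cluster the dominant arm thus differed by hairpin, 5p for miR-93 and miR-106b and 3p for miR-25. At the other end, miR-140, a miRNA from within WWP2 known for its role in cartilage, had arms of nearly equal signal. miR-140-5p read 263, 198, 233, 241 and 221 and miR-140-3p 235, 225, 231, 231 and 221, a log2 ratio of 0.01 ± 0.13. Of the 5 other hairpins nearest to 0, namely miR-4700, miR-6769a, miR-6859, miR-6802 and miR-6870, all arms lay under 30 on average. These arms, which differ in letters and seed, are shown for miR-140:
miR-140-5p: cAGUGGUUuuacccuaugguag
miR-140-3p: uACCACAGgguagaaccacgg

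In some hairpins the second arm was not detected at all. miR-20b-5p, at 9694, 7353, 7754, 7833 and 7557, had no detected miR-20b-3p on any array and was on average at least 1075-fold above the lowest detected level of its array. The same average bound was 257-fold for miR-19a-3p (1914 ± 159), 130-fold for miR-4787-5p (972 ± 85.2), 128-fold for miR-100-5p (952 ± 52.7) and 120-fold for miR-4638-5p (910 ± 231). For miR-30d-5p it was 75.1-fold, for miR-222-3p 69.8-fold and for miR-374c-5p 63.3-fold. These fold values rest on the lowest detected value of each array, averaged on the log2 scale.

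Earlier hairpins had larger arm ratios than later ones, though the detection limit bounds the ratio that a dim hairpin can show. Detected probes numbered 1 to 200 had a median level of 152, against 29.6 for numbers 6001 and over. Whether level accounts for the difference in ratio was not tested. The 57 hairpins numbered up to 500 had a median absolute ratio of 2.91 log2 units, 26 of them differed at least 10-fold, and 52 kept their side on all arrays. The 151 numbered above 500 had 1.20, 12 and 115. The brighter arm held more GC than the dimmer one in 97 and less in 71 of 173 hairpins with both sequences. That balance was 18 against 29 of 49 up to number 500 and 79 against 42 of 124 above it. The first base of the brighter arm was U in 43 and of the dimmer arm in 46 of the 108 hairpins with at least a 2-fold difference and both sequences, so the arms were alike in this.

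**Figure D4:**
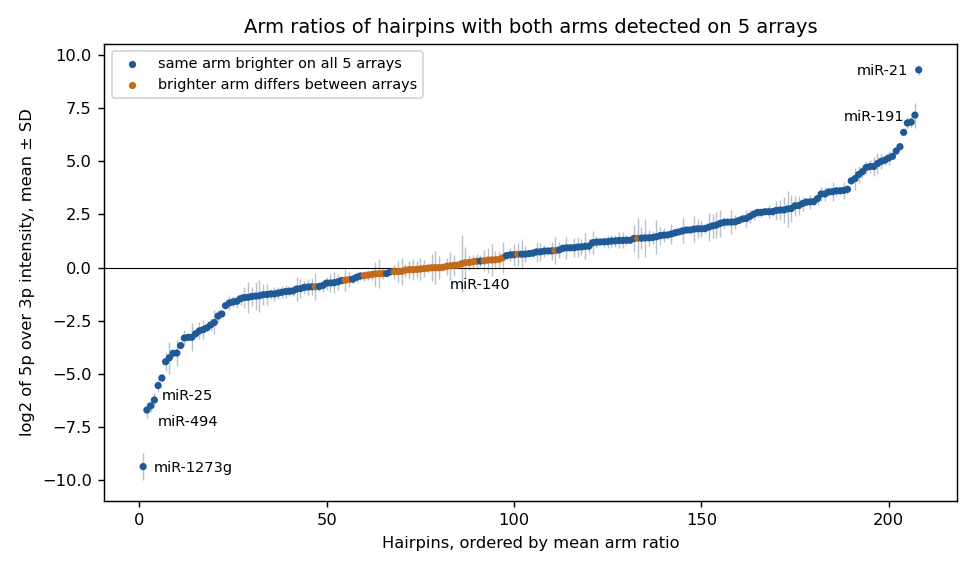
Points are the 208 hairpins with both arms detected on all 5 untreated arrays, ordered by the mean log2 of 5p over 3p signal, with bars of 1 SD over the arrays. miR-21 at 9.32 and miR-1273g at -9.38 mark the ends, and the 41 hairpins whose brighter arm differed between arrays, in orange, gather around 0.

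Replicates were tightest where signal was high. Over the 1037 probes the median SD of log2 level was 0.26 and the median coefficient of variation 18.2%. The SD was under 0.2 for 348 probes (33.6%) and at least 0.5 for 125 (12.1%). In 10 bins of level with equal numbers of probes, it had a median of 0.43 in the lowest, which ran from 9.10 to 15.0, and of 0.14 in the highest, from 556 up. Among probes with a mean of at least 25, the steadiest were miR-6724-5p at 158 ± 2.97, miR-140-3p at 229 ± 5.29, miR-422a at 343 ± 8.09, miR-378e at 121 ± 3.82 and miR-3687 at 31.3 ± 1.04.

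The largest spread among those 670 probes was in miR-3194-3p, at 8.56, 60.0, 16.4, 89.0 and 28.3. miR-224-3p read 30.8, 24.5, 33.7, 29.4 and 227, where 1 array made the spread. By contrast miR-3184-3p (10.0, 50.4, 12.6, 53.3 and 21.5), miR-4642 (15.2, 34.6, 18.4, 41.6 and 26.0) and miR-6510-5p (20.3, 46.6, 28.9, 70.9 and 25.3) were highest on arrays 4 and 2. That order also held for miR-4539 and miR-7111-3p, while miR-6861-3p was high on array 4 alone, at 52.6 against 15.0 to 24.2. Over the 1037 probes, log2 levels of 2 arrays correlated with a Pearson r of 0.975 to 0.987 and a Spearman rho of 0.917 to 0.950 in the 10 pairs, as a description across probes. The highest rho was between arrays 1 and 3 and the lowest between arrays 1 and 4.

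**Figure D5:**
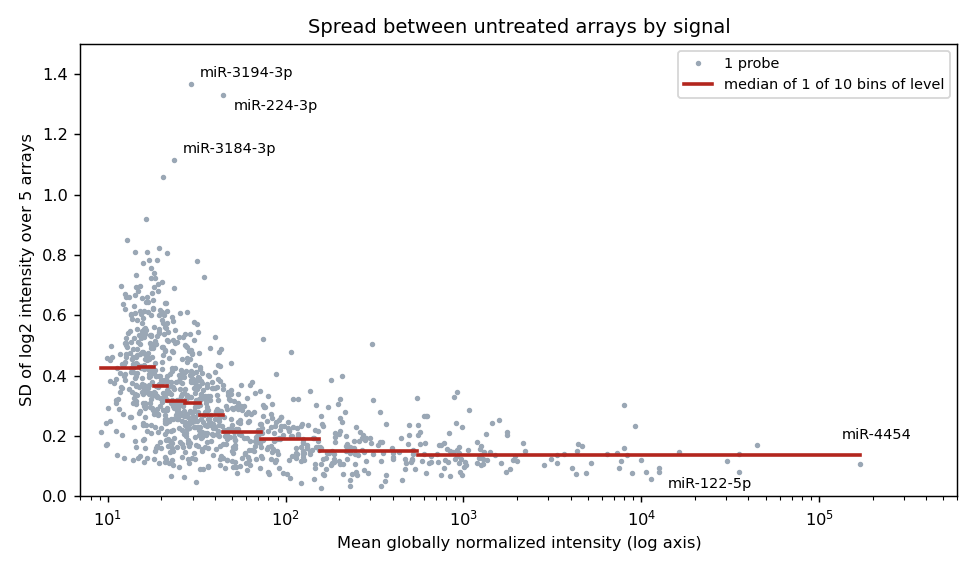
Each point is 1 of the 1037 probes detected on all 5 untreated arrays, with its mean globally normalized intensity on a log axis and the SD of its log2 level over the arrays, and red lines give the median SD of each of 10 bins of level. The median falls from 0.43 in the lowest bin to 0.14 in the highest, and miR-3194-3p, miR-224-3p and miR-3184-3p lie far above it.

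Array 4 stood somewhat apart in its technical readings. Its blank spots were the dimmest, at 30.9 against 32.9 to 34.6. The median raw brightness of 1 kind of spike control was 9392 there, against 10714 to 12087 on the others. Blank spots, 320 per array, had a mean raw brightness of 30.9 to 34.6 with an SD of 0.820 to 1.07, so a probe 1.64 to 2.14 units above the blanks was detected. The brightest raw value was 40592 to 46569 per array, and the median of the other kind of spike control was 11101 to 12386. The scaling factor from background-subtracted to normalized intensity was 3.63 to 4.23. The lowest detected value corresponded to 6.90 to 8.68 normalized units, so levels near 10 lay at the limit of detection.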

How the data were processed

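The 5 arrays labelled as untreated were read, and each was placed by its own title label. Per the file headers, each deposited file holds 3 linear intensity columns: raw brightness, background-subtracted and globally normalized intensity. How the authors made the last 2 was worked out from the values. The deposited background-subtracted intensity equals raw brightness minus the mean of the 320 blank spots, trimmed by 5% at each end, and is empty unless brightness exceeds that mean by 2 SD. The normalized intensity equals it times 1 factor per array that sets the median of detected probes to 25. For scanner and software, the name is not given in the sources used here. A deposited table of the whole series, with intensity values of 803 probes, served as an alternative, and its 5 lenvatinib columns were not used.

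Levels are the deposited normalized intensities, with n = 5, and means and SDs are arithmetic unless log2 is named. Probes are ordered by mean log2 intensity. Spots marked NG were left out. Since there is 1 group, no comparison was tested and no p-value is given. Dixon's limit was used to look for single arrays that stood apart. Shares of signal are over the detected miRNA probes of an array. Levels of different probes were set side by side as signals alone. Sequences and positions are from RefSeq GRCh38.p14, whose gene spans carry no strand here, and 214 hairpins without a hairpin entry were placed by their mature entries. On simulated data the arm ratios were checked, and the median SD of log2 was checked after scaling to probes detected on all arrays. The SD under the deposited scaling, the detection counts and the signal shares were not checked in this way. Python 3.11.15 with numpy 2.4.6 and pandas 2.3.3 was used, and limma 3.58.1 in R 4.3.3 for the normexp alternative (offset 50).

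The members, the 26 lists and the rules were chosen with earlier results of these data known. The rule named the 20 brightest probes detected on all arrays, up to 4 brightest members of each list, every hepatocyte, erythroid and leukocyte member, the 6 highest, 6 lowest and 6 nearest to 0 arm ratios, up to 8 arms with an undetected partner, the 8 largest and 5 smallest SDs, and up to 3 members of the 5 most common seeds. Other list members and the 3 partly detected probes at or above 50 were named after their values were seen.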

Additional observations from a re-analysis of the deposited data

Results flagged for a closer look

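Each named probe's 5 values were searched for 1 array whose gap to the nearest of the others exceeded 0.71 of the whole range (Dixon's limit for 5 values). Of 171 sets of values 11 passed. Chance flags about 1 in 20 groups, but some probes were named for their large or small SD over these same values, so the count has no exact chance value. Array 1 was the highest for miR-20b-5p (9694 against 7353 to 7833 on the others), miR-24-3p (2241 against 1562 to 1680), miR-30c-5p (1079 against 882 to 930) and miR-181c-5p (39.1 against 21.4 to 24.9). Array 2 was the highest for miR-200c-3p (33.3 against 15.9 to 19.5), miR-206 (28.4 against 13.7 to 16.8) and miR-520d-3p (30.6 against 17.9 to 19.6), all dim. Array 4 was the highest for miR-6822-5p, at 2283 against 1628 to 1650. On array 5 miR-122-3p read 905 against 1047 to 1076 and miR-215-5p read 555 against 649 to 666, both the lowest, while miR-224-3p read 227 against 24.5 to 33.7, by far the largest gap in fold. No array was set apart for miR-122-5p, miR-21-5p or miR-4454.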

How the results depend on the processing

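Detection counts moved with the limit. A limit of 3 SD over the blanks gave 1157.4 probes per array, 1 raw limit for all arrays gave 1094.6, and the main limit gave 1359.2. At 3 SD the muscle list kept 1 and C19MC 5 members detected on all arrays. Without array 1, 1 probe of the pluripotency clusters was detected on all remaining arrays (range 0 to 1 over the arrays left out). Raw brightness without subtraction put 38.5% of signal in the 10 brightest. The median SD of log2 was 0.038 with normexp, 0.20 in the authors' table and 0.23 to 0.27 with 1 array left out, lowest without array 4. The lowest Pearson r was 0.996 with normexp, 0.971 over probes detected on at least 3 arrays and 0.981 in the authors' table. The median absolute arm ratio was 0.31 with raw brightness and 0.21 with normexp, by their construction, since both keep background in the dim arm. With both arms detected on at least 3 arrays there were 324 hairpins, 58.3% of them brighter at 5p. The log2 level of miR-122-5p was 11.64 with no scaling and 12.29 in the authors' table, against 13.62, and its rank was 7 or 8 with 1 array left out. The 12 arm ratios named kept their direction but not their size: all 12 moved by over 1 SD with raw brightness and with normexp, and 5 of 7 in the authors' table. miR-21 gave 6.70 and 6.11, and miR-1273g -5.86 and -5.24, with raw brightness and normexp. Under quantile normalization, scaling to commonly detected probes and leaving out each array, all 147 levels tracked moved by less than 1 SD. No paired analysis was possible because the arrays form 1 group and no comparison was tested.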
